A study of Mus musculus with 22 samples.

Results

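Malat1, Neat1, Meg3, Rian, Mirg, Miat and Snhg11 are long non-coding RNAs of neurons and glia that are retained in the nucleus. These 7 of the 24421 genes in the count tables were chosen by name, with a difference in Malat1 between the cages of males 1 to 4 and those of males 5 to 7 already known. Values of these RNAs across those cages were therefore selected on and are given as a description, without a test. Total RNA of the right brain hemisphere was sequenced from C57BL/6JOlaHsd mice, an inbred strain without transgene, housed in groups and ranked by the tube test at 10 to 12 weeks of age. The animals were killed 3 to 4 days after ranking. The samples comprised 14 males and 8 females, each with equal numbers of dominant and submissive animals (7 and 7, 4 and 4), with a dominant and a submissive mouse from each cage. Mice of the same sex and replicate number were cage mates. Males 1 to 4 of each rank (8 samples) came from 4 consecutively numbered cages and males 5 to 7 (6 samples) from the next 3. Females 1 and 2 came from numbered cages and females 3 and 4 from groups named Gr1 and Gr2, with 4 samples in each set. Per the study's methods, females first ranked as intermediate were regrouped and ranked again. Whether Gr1 and Gr2 are such groups is not given in the sources used here. Males and females were in separate library sets, so sex and library set cannot be told apart.

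Nuclear long non-coding RNAs act as transcripts rather than as templates for protein. Malat1 accumulates in nuclear speckles, bodies rich in splicing factors, and Neat1 is the scaffold around which paraspeckles assemble. Meg3, Rian and Mirg are transcribed from the maternal chromosome of the imprinted Dlk1-Dio3 region and carry microRNAs and small nucleolar RNAs in their introns and exons. Miat is a neuronal transcript with its own nuclear domains, and Snhg11 is a small nucleolar RNA host gene enriched in neurons. Total RNA of whole tissue was not separated into nuclear and other fractions, so the location of these RNAs is background and was not measured here.

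Between 12403943 and 16488762 reads per sample were counted on genes. Dominant males had 12403943 to 15099149 (median 14166495) and submissive males 12851198 to 15805170 (median 14379997). Dominant females had 15375100 to 16488762 and their submissive counterparts 14967458 to 16462771. Males 1 to 4 had 12403943 to 14379997 counted reads and males 5 to 7 had 14166495 to 15805170. A library that stood apart was dominant male 1. It had 0 counts of Pcp2, a gene of cerebellar Purkinje cells, where 3 counts would correspond to 0.213 CPM (counts scaled to 1000000 counted reads, with library sizes adjusted by TMM, the trimmed mean of M values), while the other 21 samples had 19.96 to 59.9 CPM. Its 6 cerebellar markers summed to 173 CPM, against 521 to 848 CPM in the other dominant males. Comparisons of cage sets and of ranks in males were therefore repeated without this sample. Of 5 red blood cell markers, 4 were at 0 in all samples. Neuronal and glial markers were detected in every sample, with Snap25 or Syt1 leading the neuronal list.

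Malat1 lies on chr19:5795690-5802671 of the mm10 assembly, minus strand, and Neat1 on chr19:5824710-5845480, minus strand. Meg3 (chr12:109540996-109571729), Rian (chr12:109603945-109661711) and Mirg (chr12:109734981-109749457) follow each other on the plus strand of chromosome 12. Of the exon bases of Meg3, 174 are shared with the microRNA genes Mir770, Mir1906-1 and Mir1906-2, the latter pair listed at the same positions in the count tables, and 94 of those of Mirg with Mir369, Mir410 and Mir412. Reads over shared bases may have been assigned to either gene or to none, which makes the counts of Meg3 and Mirg uncertain to that extent. Miat lies on chr5:112213228-112228948, minus strand, and Snhg11 on chr2:158375638-158386145, plus strand. The GENCODE annotation classes Snhg11 as protein coding although it is treated as a non-coding host gene.

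Malat1 held more counts than any other gene in all 22 samples. Its share of counted reads was lowest in dominant male 5, 0.890% (95% Wilson interval 0.885% to 0.895%), and highest in dominant male 4, 1.84% (1.83% to 1.84%). These intervals cover counting error only. Together the 7 RNAs took 1.10% to 2.21% of counted reads. Between genes, levels were compared as CPM per 1000 exon bases. The median over samples was 1660 for Malat1, 172 for Rian, 110 for Snhg11, 92.3 for Meg3, 20.5 for Miat, 10.6 for Mirg and 3.605 for Neat1. This order was the same in 21 of 22 samples. In the remaining 1 sample Meg3 exceeded Snhg11. Among 15233 genes, Malat1 ranked at position 5 on this scale, Rian at 232, Snhg11 at 463 and Meg3 at 596. Mirg, at position 6599, and Neat1, at 10497, were not abundant for their length. Counts ranged from 159 to 273 for Mirg and from 131332 to 253727 for Malat1, so counting error was widest for Mirg.

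**Figure D1:**
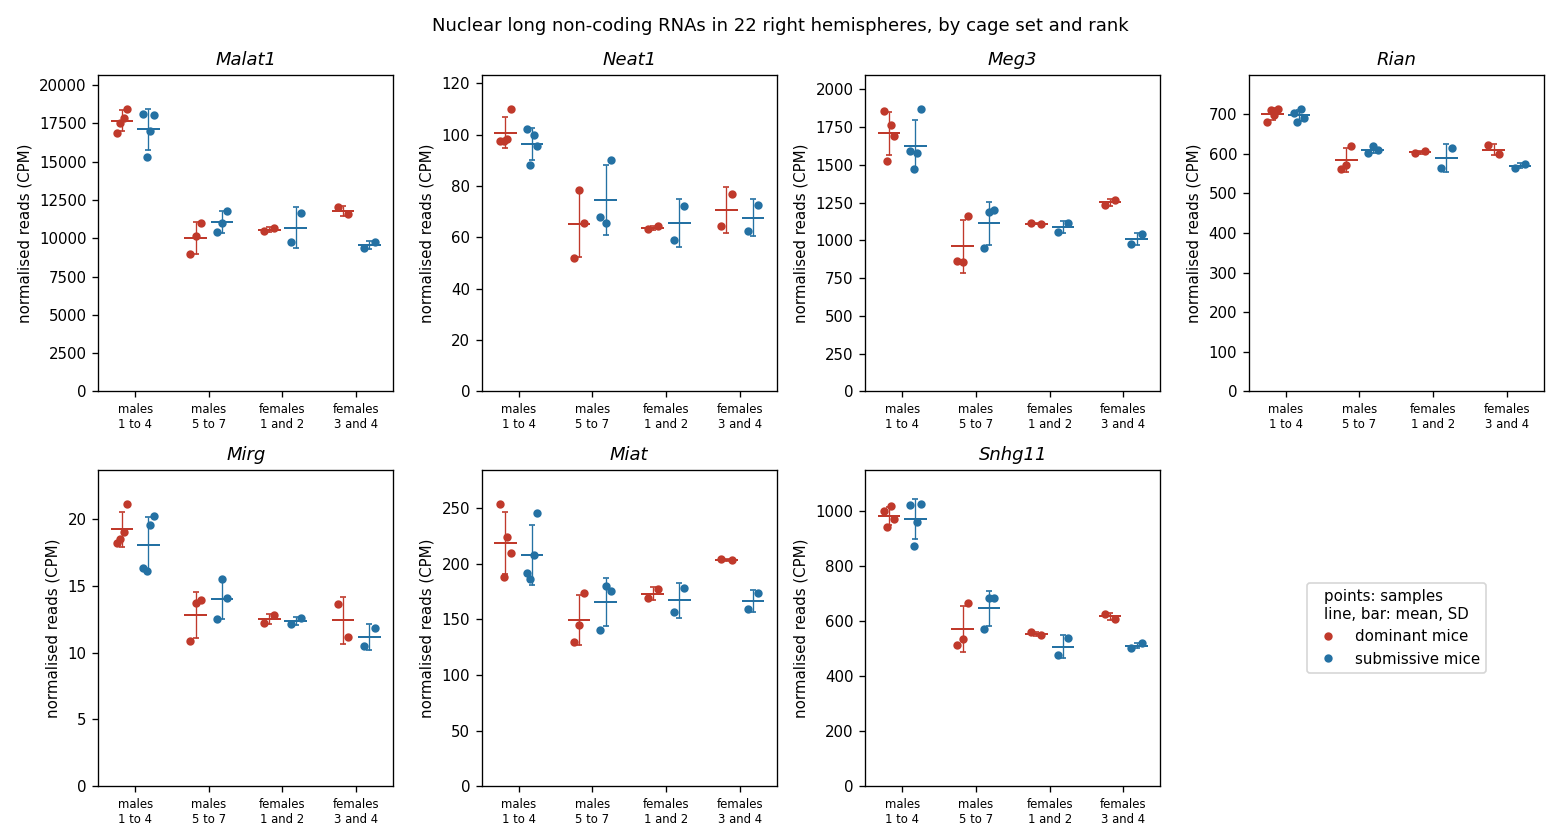
Normalised reads (CPM, linear axis from 0) of the 7 RNAs in 22 samples, by cage set and rank. Points are samples, and lines with bars are the mean and SD of 2 to 4 samples. Malat1 was at 15272 to 18453 CPM in males 1 to 4 and at 8948 to 11777 CPM in males 5 to 7.

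Malat1, the speckle RNA, reached 16854, 17499, 17870 and 18453 CPM in dominant males 1 to 4 and 18102, 15272, 17003 and 18062 CPM in their submissive cage mates. In males 5 to 7 it was at 8948, 10142 and 11009 CPM in dominant and at 10397, 11006 and 11777 CPM in submissive mice. All 8 samples of males 1 to 4 lay above all 6 of males 5 to 7. The means were 17390 ± 1018 CPM (SD, n = 8) and 10547 ± 968 CPM (n = 6), a 1.65-fold difference and -0.72 on the log2 scale. In females Malat1 was at 10443, 10670, 12028 and 11553 CPM in dominant and at 9758, 11633, 9356 and 9731 CPM in submissive mice. Submissive female 2 lay within the dominant range, and the other submissive females lay below it. In bulk tissue, fewer cells of a type and less RNA per cell cannot be told apart.

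Neat1, the paraspeckle scaffold, was lower per length than the other 6 RNAs. It was at 98.7 ± 6.22 CPM (SD, n = 8) in males 1 to 4 and at 69.9 ± 12.99 CPM (n = 6) in males 5 to 7, a log2 difference of -0.51. The sets overlapped, because submissive male 7 was at 90.2 CPM and submissive male 2 at 88.1 CPM. Female values were 63.2, 64.3, 64.4 and 77.0 CPM in dominant and 58.9, 72.3, 62.6 and 72.7 CPM in submissive mice. The ranks overlapped.

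The RNAs of the Dlk1-Dio3 region did not differ by the same amount between the male cages. Meg3 was at 1667 ± 152 CPM (SD, n = 8) in males 1 to 4 and 1036 ± 165 CPM (n = 6) in males 5 to 7, a log2 difference of -0.70. Rian had the smallest of the 7 differences before the exon length trend described below was removed, from 699 ± 13.9 to 598 ± 25.0 CPM, or -0.23 on the log2 scale. Mirg went from 18.6 ± 1.75 to 13.4 ± 1.6 CPM, or -0.47. For each of these 3 RNAs the cage sets did not overlap. Dominant females had 1115, 1107, 1236 and 1266 CPM of Meg3 and submissive females had 1058, 1114, 978 and 1039 CPM. Submissive female 2 was above dominant female 2, so the ranks overlapped narrowly. Rian was at 600.4 to 621.5 CPM in dominant and 565 to 614 CPM in submissive females, and Mirg at 11.2 to 13.6 and 10.5 to 12.6 CPM.

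Snhg11, the host of small nucleolar RNAs, was at 978 ± 52.2 CPM (SD, n = 8) in males 1 to 4 and 610 ± 78.2 CPM (n = 6) in males 5 to 7, a log2 difference of -0.69. Its values in dominant females were 561, 550, 627 and 608 CPM and in submissive females 478, 538, 504 and 520 CPM. Every dominant female lay above every submissive female. Of 14863 genes, 3.36% were higher in dominant females without overlap. Miat was at 213 ± 26.0 CPM in the former male cages and 158 ± 21.5 CPM in the latter, a log2 difference of -0.44. In females Miat was at 169, 177, 204 and 203 CPM in dominant and 156, 178, 159 and 173 CPM in submissive mice, with overlap.

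Across the male cage sets, 6 of the 7 RNAs were lower in males 5 to 7 without overlap, as were 5.14% of 14737 genes. The median log2 difference was -0.51 for the 7 RNAs and 0.0072 for all genes. Without dominant male 1 the count was also 6, for which no share of all genes is given here. In dominant males alone all 7 were lower without overlap, against 11.3% of genes, and in submissive males alone 6, against 12.7%. Counts also differed by exon length between the cages. The slope was taken on each gene's deviation from its mean over all males. It is thus relative to the other males, and slopes of both signs occur by construction. The log2 slope per doubling of exon length was positive in all 8 samples of males 1 to 4 (0.00914 to 0.0426) and negative in all 6 of males 5 to 7 (-0.0532 to -0.00890). With this trend removed, the log2 difference was -0.61 for Malat1, -0.60 for Snhg11, -0.52 for Mirg, -0.47 for Meg3, -0.28 for Miat, -0.20 for Rian and -0.20 for Neat1.

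Other gene groups were compared across the same cages, also without a test. Over all genes, 48.2% were lower in males 5 to 7 and 5.14% were lower without overlap. Of 18 nuclear speckle protein genes, 17 were lower in males 5 to 7 and 6 did not overlap (median log2 difference -0.19). Their summed level was 2833 ± 58.0 CPM (SD, n = 8) against 2425 ± 84.7 CPM (n = 6). Of 17 paraspeckle protein genes, 13 were lower and 8 did not overlap (median -0.19), with summed levels of 2915 ± 63.4 against 2818 ± 68.2 CPM. Of 30 other long non-coding RNAs, 23 were lower and 2 did not overlap (median -0.092). All 8 immediate-early genes, markers of recent neuronal activity, were lower and 3 did not overlap (median -0.67), with summed levels of 178 to 307 CPM against 132 to 182 CPM and Arc the most abundant. The 16 ribosomal protein genes were all higher (median 0.12). The 7 neighbours of Malat1 and Neat1 on chromosome 19 had a median of 0.034 and summed levels of 159 ± 4.87 and 159 ± 4.52 CPM. The Dlk1-Dio3 genes beside Meg3 had a median of -0.11 over the 4 measured, none without overlap. The sum over all 5 genes of this list in the counts was 51.8 ± 4.19 against 54.9 ± 4.48 CPM. In an alternative chosen after seeing the data, dominant male 1 was left out. The medians were then -0.19 for speckle and -0.20 for paraspeckle genes, -0.099 for other long non-coding RNAs, -0.66 for immediate-early genes and 0.13 for ribosomal protein genes.

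Cell type markers were compared between the same male cages. Pan-neuronal markers summed to 4777 ± 171 CPM (SD, n = 8) and 4865 ± 176 CPM (n = 6), with 5 of 6 higher (median 0.040). Inhibitory markers summed to 933 ± 22.9 and 957 ± 14.03 CPM, with 5 of 6 higher (median 0.11). Excitatory markers summed to 1204 ± 124 and 1264 ± 90.8 CPM, but 2 of 5 were higher and their median was -0.051. Astrocyte markers were higher in 6 of 6 genes (median 0.099), oligodendrocyte markers in 5 of 6 (median 0.12), microglial markers in 5 of 6 (median 0.088), endothelial markers in 4 of 5 (median 0.016) and striatal markers in 4 of 5 (median 0.054). Oligodendrocyte precursor markers were lower in 3 of 4 (median -0.18). Choroid plexus markers were higher in 6 of 6 (median 0.25). Cerebellar markers were higher in 6 of 6 (median 0.59) with dominant male 1, but in 3 of 6 (median 0.0013) without it. Their sum without it was 751 ± 98.1 CPM in males 1 to 4 (n = 7) against 706 ± 112 CPM in males 5 to 7. Leaving it out also gave 5 of 6 astrocyte, 3 of 5 endothelial and 2 of 4 precursor markers higher, and an excitatory median of -0.0047. Alas2 was the measured red blood cell marker, with a difference of 0.14. The part of cell composition in the differences was not tested.

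In females, none of the 7 RNAs separated the numbered cages from Gr1 and Gr2, where 1.38% of genes were lower without overlap. The median log2 difference of the 7 was 0.032. In dominant females alone 5 RNAs were higher in Gr1 and Gr2 without overlap, against 20.4% of genes, and in submissive females alone 3 were lower, against 20.6%. With 2 samples on each side these counts are descriptive.

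The rank comparison asked whether dominant and submissive mice of a sex differed, in fits without the cage as a block. In males, edgeR called 0 of 14737 genes (0%), with 194 at an unadjusted p under 0.05. DESeq2 also called 0, with 119 at that level. The 7 RNAs had log2 fold changes of dominant over submissive between -0.045 and 0.010, with standard errors of 0.0608 to 0.176. Malat1 was at 14397 ± 4152 CPM (SD, n = 7) in dominant and 14517 ± 3391 CPM (n = 7) in submissive males. Each rank held values from both cage sets. With the cage as a block, edgeR also called 0 genes, with 338 at an unadjusted p under 0.05. The median log2 fold change of the 7 RNAs was then -0.035. Without the block and without dominant male 1, 0 genes were called, and the median of the 7 went from -0.021 to -0.061. This fit had no term for cage set, so leaving out a male made the ranks unequal across the cage sets. Without dominant male 5 the median was 0.066.

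Rank differences were also taken within male cages. In the cages of males 1, 2, 3 and 4, the number of the 7 RNAs that were higher in the dominant mouse was 3, 7, 4 and 4. In those of males 5, 6 and 7 it was 0, 1 and 1. Malat1 differed by -0.10, 0.20, 0.072 and 0.031 (log2) in the former and by -0.22, -0.12 and -0.097 in the latter cages. An interaction of rank with cage set, added after seeing the data, was fitted with edgeR. It called 0 of 14737 genes (0%), with 282 at an unadjusted p under 0.05, and was negative for all 7 RNAs (median -0.22). The smallest unadjusted p was 0.0586, for Malat1. Without dominant male 1 it also called 0 of 14787 genes (0%), with 400 at that level, and was negative for all 7 RNAs (median -0.21), with an unadjusted p of 0.0314 for Malat1 (adjusted p = 1.00). The rank difference of these RNAs was thus not shown to differ between the male cage sets. This interaction was not fitted with the cage as a block, so the pairing of cage mates was not used here.

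**Figure D2:**
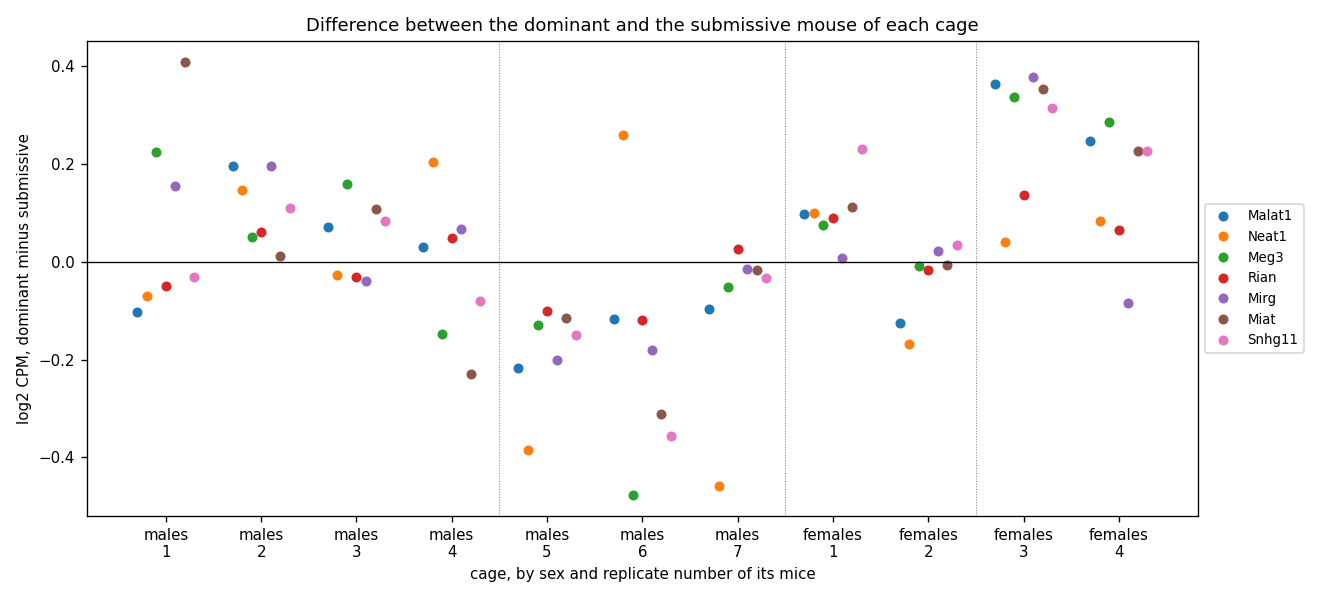
Difference in log2 CPM between the dominant and the submissive mouse of each of 11 cages, with a point for each of the 7 RNAs and a line at 0. All 7 RNAs were above 0 in the cages of males 2, females 1 and females 3, and none was above 0 in that of males 5.

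In females, edgeR called 14 of 14865 genes (0.0942%), 11 higher and 3 lower in dominant mice, with 1563 at an unadjusted p under 0.05. None of the 7 RNAs was among them. All 7 had positive log2 fold changes, with a median of 0.14 against -0.0020 over all genes. The exon length slope, here relative to the mean of all females, also separated the female ranks. It was -0.00283 to 0.0217 in dominant and -0.0173 to -0.00820 in submissive mice. With this trend removed, 6 of the 7 estimates were positive, with a median of 0.096. Snhg11 had the largest estimate, 0.19 (SE 0.0407, edgeR adjusted p = 0.0747), and was higher in the dominant mouse of all 4 cages. Meg3 was at 0.17 (SE 0.0421, adjusted p = 0.150) and higher in 3 of 4 cages. Miat was at 0.17 (SE 0.0534, adjusted p = 0.250) and Malat1 at 0.14 (SE 0.0526, adjusted p = 0.358). Mirg, Rian and Neat1 had 0.074, 0.060 and 0.0036, with adjusted p from 0.521 to 0.991. A p above the threshold does not show that the ranks were alike.

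Whether Snhg11, Meg3 and Malat1 were called in females depended on the method and on single samples. With the cage as a block, edgeR called 36 genes, 27 of them higher in dominant females (0.182%), and Snhg11 was called (adjusted p = 0.0394). DESeq2 called 77, 73 of them higher (0.491%), with Snhg11 (adjusted p = 0.00355) and Meg3 (adjusted p = 0.0306). Without the filter on low counts edgeR called 84, 65 higher (0.328%), again with Snhg11 (adjusted p = 0.00486) and Meg3 (adjusted p = 0.0234). Without dominant female 2, 68 genes were higher (0.455%) and Snhg11 was called (adjusted p = 0.0191). Without submissive female 2, 18 were higher (0.12%), and Snhg11 (adjusted p = 0.0348) and Malat1 (adjusted p = 0.0338) were called. With the exon length trend removed 0 genes were called. Over all settings the adjusted p of Snhg11 ranged from 0.00355 to 0.974.

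The female rank difference was also fitted within each cage set. Each of these fits had 4 samples, 2 of each rank, and no cage block. In Gr1 and Gr2 alone, 104 genes were higher in dominant females (0.697%), among them Malat1 (log2 0.29, edgeR adjusted p = 0.000451), Meg3 (0.30, adjusted p = 0.00192), Snhg11 (0.26, adjusted p = 0.00484) and Miat (0.27, adjusted p = 0.0130). In females 1 and 2 alone 5 genes were called, all lower, and none of the 7 RNAs. With so few samples these calls are uncertain, and a call in only 1 set does not show that the sets differ. Malat1 differed by 0.098 and -0.12 in the numbered cages, 0.36 in Gr1 and 0.25 in Gr2. The interaction of rank with cage set, added after seeing the data, called 0 of 14865 genes in edgeR (0%), with 934 at an unadjusted p under 0.05. It was positive for all 7 RNAs (median 0.12). Meg3 had 0.26 (unadjusted p = 0.000314, adjusted p = 0.539) and Malat1 0.31 (unadjusted p = 0.00139, adjusted p = 0.676), so the difference between the sets did not pass the threshold over all genes. As in males, the cage was not a block in this fit. Immediate-early genes summed to 370 and 255 CPM in the dominant and to 275 and 171 CPM in the submissive mice of Gr1 and Gr2. In the numbered cages they summed to 203 and 172 CPM in the dominant and to 173 and 195 CPM in the submissive mice, so the direction differed between those 2 cages. Their part in the difference was not tested.

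**Figure D3:**
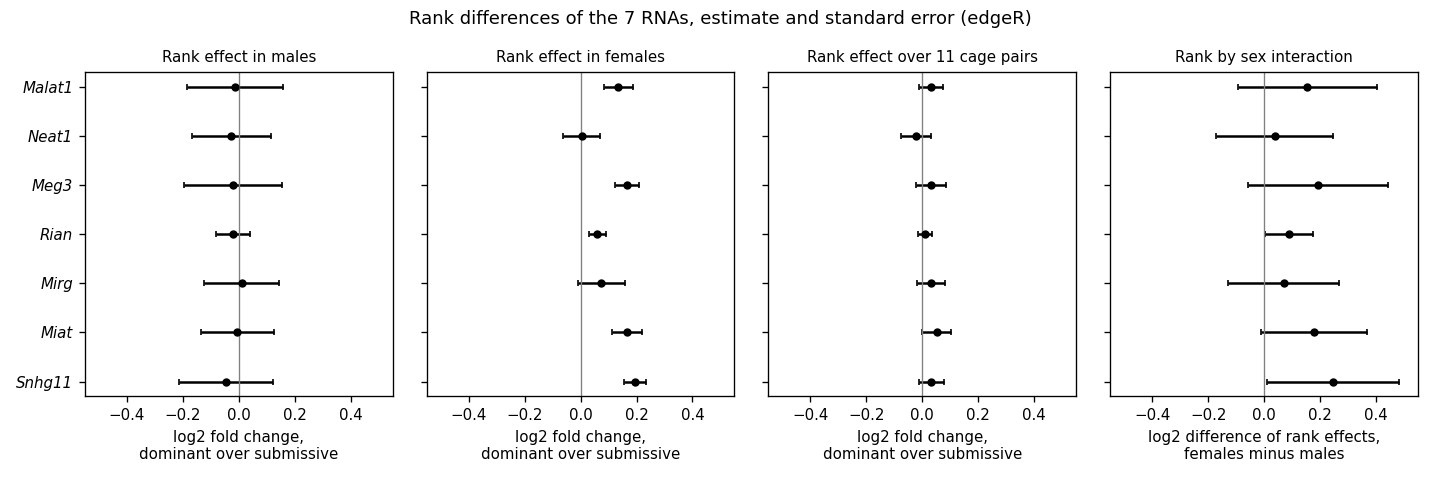
Rank differences of the 7 RNAs from edgeR in males, in females, over 11 cage pairs and between the sexes. Points are log2 estimates and bars their standard errors. Snhg11 in females lay at 0.19, and the males centred near 0 with wider errors. Only the fit over 11 cage pairs had the cage as a block.

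Over all 11 cage pairs edgeR called 0 of 15233 genes (0%), with 424 at an unadjusted p under 0.05, and DESeq2 called 0, with 86. The 7 RNAs had a median of 0.030, and 6 of 7 were positive. The interaction of rank with sex asked whether the rank difference itself differed between females and males. EdgeR called 0 of 15233 genes (0%), with 505 at an unadjusted p under 0.05, and DESeq2 called 0, with 426. All 7 estimates were positive, with a median of 0.15, and the largest was Snhg11, 0.25 (SE 0.237, edgeR adjusted p = 0.999). This interaction was fitted without the cage as a block, so the pairing of cage mates was not used. With the block edgeR also called 0 genes, with 1051 at an unadjusted p under 0.05. All 7 RNAs were again positive, with a median of 0.18. Over the other settings, in edgeR or DESeq2, the adjusted p of Snhg11 was 0.712 or above. The rank difference of these RNAs was thus not shown to differ between the sexes.

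In females the genes around the 7 RNAs showed few calls. Among 28 other long non-coding RNAs, Xist, which coats the inactive X chromosome, was called higher in dominant females (log2 0.22, SE 0.0367, edgeR adjusted p = 0.0377), as 1 of the 14 genes called (0.0942%). It was at 395, 358, 395 and 387 CPM in dominant and 308, 340, 332 and 335 CPM in submissive mice, without overlap, as were 3.36% of genes. The call was lost with the exon length trend removed (log2 0.13, edgeR adjusted p = 0.301). It was also lost without any 1 of dominant females 1, 3 and 4 and submissive females 1, 3 and 4 (edgeR adjusted p from 0.0666 to 0.123). The log2 estimate stayed at 0.19 to 0.23 in these settings. Over all settings the adjusted p of Xist ranged from 0.000123 to 0.605. The list as a whole had 16 of 28 positive and a median of 0.035. Of 18 speckle protein genes, 15 were positive (median 0.053) and 0 called. The smallest p belonged to Srrm2, a core speckle protein (0.18, edgeR adjusted p = 0.0747), and Tra2a (0.15, adjusted p = 0.327). Of 17 paraspeckle genes, 12 were positive (median 0.046) and 0 called, with Sfpq at 0.13 (edgeR adjusted p = 0.193). The 4 measured Dlk1-Dio3 genes beside Meg3 had 1 positive and 0 called, with Dlk1 at -0.23 and Rtl1 at -0.39. The 7 chromosome 19 neighbours had 3 positive and 0 called.

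Other lists had 0 calls in females. All 8 immediate-early genes were positive (median 0.28), with the smallest p for Egr1 (0.42, edgeR adjusted p = 0.193). Of 5 excitatory neuron markers, 4 were positive (median 0.16). All 16 ribosomal protein genes were negative (median -0.054), as were all 6 choroid plexus markers (median -0.25), with the smallest p for Kl (-0.36, edgeR adjusted p = 0.0867). Pan-neuronal, inhibitory, astrocyte, oligodendrocyte, precursor, microglial, endothelial, cerebellar and striatal lists had medians between -0.027 and 0.076. Alas2 was at 0.65 (adjusted p = 0.149). The part of these groups in the rank differences was not tested. In males, over the 11 cage pairs and in the interaction with sex, 0 genes of any list were called.

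Variation from sample to sample was compared between the 7 RNAs. Among their 21 pairs, Pearson's r of log2 CPM ranged from -0.41 to 0.96 in males 1 to 4 (median 0.49, 8 samples), from 0.32 to 0.99 in males 5 to 7 (median 0.85, 6 samples) and from -0.15 to 0.94 in females (median 0.68, 8 samples). These are descriptions, since samples share cages, library preparation and depth. The genes most like each RNA were taken over the 14 males from 10330 genes, where the cage sets form separate clusters, so r within males 1 to 4 and within males 5 to 7 is given beside the first gene of each RNA. Malat1 was most like Leng8 (r = 0.993; 0.818 and 0.951 within the sets), Macf1 and Nktr. Snhg11 was also most like Leng8 (0.996; 0.985 and 0.987), then Abcc5 and Meg3. Meg3 was most like Snhg11 (0.984; 0.767 and 0.993), Abcc5 and Leng8. Rian was most like A330023F24Rik (0.992; 0.918 and 0.974), Zcchc7 and Nktr. Miat was most like Snapc4 (0.983; 0.994 and 0.924), Trank1 and Meg3. Mirg was most like Akap8 (0.959; 0.691 and 0.973), Wsb1 and Amy1, and Neat1 most like Srsf6 (0.9505; 0.605 and 0.864), Hnrnpa2b1 and Arhgef1. For the other 14 pairs of an RNA and a gene named here for males, r had a median of 0.768 within males 1 to 4 (0.0056 to 0.960) and of 0.946 within males 5 to 7 (0.849 to 0.993). The lowest belonged to Arhgef1, whose likeness to Neat1 did not hold within males 1 to 4.

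Over the 8 females, among 10321 genes, the most alike genes were others. Malat1 was closest to Golga4 (r = 0.969), Herc1 and Strbp, and Neat1 to Coro7 (0.951), Pak7 and Cntn3. Meg3 was closest to Mdn1 (0.992), Cttnbp2 and Dlgap2, and Rian to Ttc14 (0.979), D130040H23Rik and Cpsf7. Mirg was closest to Fgfr1op2 (0.971), Neurl1a and Ibtk. Miat was closest to Kcnip2 (0.975), Brwd1 and Trank1, which was among its 3 closest genes in males too. Snhg11 was closest to Gabrb1 (0.975), Rbm33 and Zcchc14.

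Promoters are shown for Malat1 and Meg3, which with Snhg11 had the 3 largest log2 differences between the male cages before the exon length trend was removed. With it removed, Mirg (-0.52) exceeded Meg3 (-0.47). RefSeq windows of 300 bases on GRCm38.p6 were found for 6 of the 7 RNAs, and Neat1 is named only. Both strands were searched for TGACGTCA, the cyclic AMP response element, for TATAAA (the TATA box), CCAAT (the CCAAT box), GGGCGG (the GC box) and CACGTG (the E-box). The first Meg3 window, chr12:109540746-109541045 on the plus strand, held TGACGTCA at bases 194 to 201, TATAAA on each strand within bases 222 to 231, where the 2 matches overlap, and CCAAT at bases 151 to 155. Over 32851 promoter windows these letters occurred in 1.79%, 13.6% and 37.4%. The Malat1 window, chr19:5802623-5802922 on the minus strand, held none of the 5. Mirg held CCAAT and Miat GGGCGG, which 35.7% of windows hold, and the windows of Rian and Snhg11 and the second of Meg3 held none. CACGTG, in 7.15% of windows, was in none of them. A match is a description of letters and not of a bound site. Capitals mark the matches.
Meg3 promoter: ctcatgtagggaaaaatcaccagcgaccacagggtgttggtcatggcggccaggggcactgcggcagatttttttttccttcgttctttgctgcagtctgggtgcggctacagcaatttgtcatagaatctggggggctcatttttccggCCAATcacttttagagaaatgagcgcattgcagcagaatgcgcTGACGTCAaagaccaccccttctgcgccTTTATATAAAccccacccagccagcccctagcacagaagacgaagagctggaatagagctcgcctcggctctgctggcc
Malat1 promoter: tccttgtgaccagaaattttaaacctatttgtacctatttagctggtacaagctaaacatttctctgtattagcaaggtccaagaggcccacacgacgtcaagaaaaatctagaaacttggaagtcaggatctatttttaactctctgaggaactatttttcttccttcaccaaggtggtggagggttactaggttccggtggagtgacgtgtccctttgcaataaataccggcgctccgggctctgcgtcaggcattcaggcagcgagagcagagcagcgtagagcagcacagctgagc

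Malat1 and the long form of Neat1 lack a usual poly(A) tail. Their 3′ ends are cut by RNase P and protected by a triple helix that an A-rich stretch forms with upstream U-rich stretches. These ends are shown because the library was made from total RNA, which keeps such transcripts. The last 80 bases of Neat1-201 lie at chr19:5824708-5824787 and bases 6612 to 6691 of Malat1-201 at chr19:5795982-5796061, both on the minus strand of GRCm38 in the GENCODE annotation. The Malat1 stretch ends 292 bases before the annotated end. It was cut where Malat1-201 holds the longest stretch that also ends Neat1-201. By this choice both end in the same 11 letters, in capitals. Of 141767 transcripts, 618 (0.436%) hold these letters.
Neat1 end: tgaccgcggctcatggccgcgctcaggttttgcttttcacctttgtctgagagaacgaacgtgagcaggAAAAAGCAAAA
Malat1 end: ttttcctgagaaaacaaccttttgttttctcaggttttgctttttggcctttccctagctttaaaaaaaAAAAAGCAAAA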

How the data were processed

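RNA of right hemispheres kept in RNAlater was extracted with an RNeasy Lipid kit, and TruSeq stranded total RNA libraries were depleted of ribosomal RNA and sequenced on a NextSeq 500 with reads of 85 bases. The deposited values are whole-number counts per gene. The authors trimmed reads, aligned them to mm10 and counted them on iGenomes genes, with cutadapt 1.15, STAR 2.6.0a, featureCounts 1.6.2 and FastQC 0.11.8 named in the submitters' processing notes and methods. The strand setting of the counting is not given in the sources used here. Of the gene names, 27 had been turned into dates and 2 were duplicated.

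Counts were analysed in R 4.3.3 with edgeR 4.0.16 (TMM, filterByExpr with a minimum count of 10 and a total of 15, quasi-likelihood test, Benjamini-Hochberg adjustment over all genes tested, threshold 0.05) and DESeq2 1.42.0. All 7 RNAs passed the filter in every comparison. Displayed CPM used TMM factors over 22 samples, and log2 CPM a prior count of 2. Exon length trends were loess fits with a span of 0.3 to each gene's deviation from its mean over the samples fitted. Scripts were tested on simulated data. Replicates are separate mice, and all 54 pairs within groups differed beyond sampling noise (chi-square averaged over genes 1.81 to 16.6).

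The 7 RNAs and the gene lists were chosen with earlier results of these data known. Named genes are the 7 RNAs, listed genes that were called or otherwise those with the smallest p, and the 3 genes most correlated with each RNA at a mean CPM of at least 10; some listed genes that meet this rule are not reported here. Same-numbered mice share a cage in the library names and were killed together per the methods, so the numbers pair the samples. The fit over 11 cage pairs had the cage as a block, and the fits within a sex and of the interaction with sex had it as an alternative. The interactions of rank with cage set had no cage block. Males 1 to 4 came from cages 1394 to 1397, males 5 to 7 from cages 1398 to 1400, and females 1 to 4 from cages 1279, 1280, Gr1 and Gr2. Deviations from the means of the sex and rank groups were correlated over 10336 genes. For same-numbered mice r averaged 0.334 in males (-0.0589 to 0.512) and 0.0273 in females (-0.102 to 0.104). For mice with other numbers it averaged -0.0547 in males and -0.00909 in females. The difference between the male cage sets was not removed from these deviations. Alternatives were DESeq2, its size factors, scaling without the 7 RNAs, no filter, the exon length trend removed, a cage block, cage sets alone or as a covariate, and each sample left out.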

Additional observations from a re-analysis of the deposited data

Results flagged for a closer look

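Samples far from the others of their group were sought by the gap to the nearest sample over the range, in 208 groups of 4 to 8 samples, of which 56 held values of the 7 RNAs and 152 summed lists. Chance marks about 1 in 20 such groups, and 13 were marked. For the RNAs themselves, Neat1 in dominant female 4 was high among dominant females at 77.0 CPM, and Meg3 in submissive female 1 was low among the numbered cages at 1058 CPM.

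Dominant female 4 also had the highest summed Dlk1-Dio3 genes, 62.7 CPM, both among dominant females and in the Gr groups, and the lowest chromosome 19 neighbours in the Gr groups, 145 CPM. Dominant male 1 had the lowest cerebellar sum of males 1 to 4, 173 CPM, and the lowest astrocyte sum of dominant males, 2514 CPM. Cerebellar sums were also low in submissive male 4 among submissive males, 535 CPM, and in submissive female 2 among the numbered cages, 649.7 CPM. Excitatory markers were low in dominant male 6 among males 5 to 7, 1091 CPM. Precursor markers were low in submissive female 3 among submissive females, 131 CPM, and striatal markers in dominant female 2 among dominant females, 277 CPM. Microglial markers were highest of the 4 submissive females in submissive female 2, 254 CPM, within the range of dominant females.

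Across 21 comparisons of rank differences between sexes or cage sets, none had all samples of the groups moving in opposite ways.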

How the results depend on the processing

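In males, over 11 cage pairs and in the interaction with sex, 0 genes were called in every setting run, and none of the 7 RNAs was called. Among the male cage sets the count of 6 non-overlapping RNAs stayed between 5 and 7. The share of all genes lower without overlap differed between alternatives. It was 5.14% in both ranks, 11.3% in dominant males alone and 12.7% in submissive males alone, so equal counts do not mean the same in each. For the other alternatives no share of all genes is given here, so their counts cannot be set against one.

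The female count of 14 called genes became 77 with DESeq2, 84 without the filter, 0 with the exon length trend removed, 36 with the cage block, 8 with block and trend together, 5 in replicates 1 and 2 alone and 120 in replicates 3 and 4 alone. Leaving out a sample gave 0 to 77. It was 0 without submissive female 1 or 3, 1 without dominant female 3, 3 without dominant or submissive female 4, 7 without dominant female 1, 27 without submissive female 2 and 77 without dominant female 2. Among the 7 RNAs, the pairing by block changed no call in the 4 rank comparisons other than that of Snhg11 in females. Causes were not tested. In the female cage sets the count of 0 (1.38% of genes lower) became 5 higher in dominant mice alone (20.4% of genes) and 3 lower in submissive mice alone (20.6%). It was 0 to 1 with a sample left out (1 without dominant female 3), for which no share of all genes is given here.

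Signs of small log2 fold changes turned. In males with the trend removed they were 0.013 for Meg3, 0.0050 for Malat1, 0.022 for Neat1 and 0.022 for Miat. With block and trend they were -0.0028 for Mirg, 0.011 for Neat1 and 0.011 for Miat. In replicates 1 to 4 they were 0.068 for Meg3, 0.0057 for Rian, 0.045 for Malat1, 0.062 for Neat1, 0.017 for Snhg11 and 0.074 for Miat, and in replicates 5 to 7 -0.13 for Mirg. In females Neat1 was -0.088 with the trend removed, -0.086 with block and trend and -0.042 in replicates 1 and 2, where Malat1 was -0.019. The interaction of Neat1 with sex was -0.11 with the trend removed.

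With a sample left out, male values ranged from -0.10 to 0.069 for Meg3, -0.046 to 0.0098 for Rian, -0.058 to 0.091 for Mirg, -0.083 to 0.074 for Malat1, -0.097 to 0.064 for Neat1, -0.12 to 0.039 for Snhg11 and -0.090 to 0.068 for Miat. The male fit had no term for cage set, so leaving out a male made the ranks unequal across the cage sets. Neat1 in females ranged from -0.067 to 0.051. With a cage left out, pooled values ranged from -0.0017 to 0.079 for Meg3, -0.0035 to 0.022 for Rian, -0.0025 to 0.050 for Mirg, -0.0021 to 0.056 for Malat1 and -0.051 to 0.020 for Neat1. The interaction with sex ranged from -0.010 to 0.14 for Mirg and -0.053 to 0.11 for Neat1. Depth limits Mirg most, at 159 to 273 counts.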
